A study of Mus musculus with 18 samples.

Results

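The comparison described here sets cells after 3 h of estradiol against the same cells before estradiol (0 h), across all transcripts that the array measures. It used 6 of the 18 arrays of the series, those titled for 3 h and for 0 h with the replicate letters A, B and C. The cells were G1E-ER4. G1E is a mouse erythroid line that came from embryonic stem cells whose Gata1 gene had been disrupted, and ER4 is 1 subclone of it. That subclone carries Gata-1-ER, in which Gata-1 is linked to the part of the estrogen receptor that binds estradiol, and the hormone makes the fusion active. Cells of the 3 h group and of the 0 h group therefore shared the disrupted Gata1 gene, the fusion and the clone, and they differed in estradiol and in 3 h of culture. Each group had 3 biological replicates, each read on 1 Affymetrix MG-U74Av2 array. The promoter that drives the fusion was not given in the sources used here. No array held estradiol-treated cells without the fusion, or untreated cells kept for 3 h. An effect of the hormone itself or of handling therefore cannot be told apart from that of Gata-1-ER. The labels also place cells at 7, 14, 21 and 30 h of estradiol, and those 12 arrays were used to estimate the spread and to follow the transcripts that differed at 3 h.

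Gata-1 is a zinc finger transcription factor that binds DNA at GATA motifs without which red cell precursors do not mature. With its partner Friend of Gata-1 and with a complex built on Tal1, Lmo2 and Ldb1, it turns on genes of heme, globin and the red cell membrane. It also represses genes of the progenitor state, among them Gata2, whose protein it displaces from shared DNA sites. The 3 h arrays are the earliest after estradiol in the series, and the comparison asks which transcripts had changed by then.

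The array held 12488 probe sets, groups of short DNA probes that each read 1 transcript or a few. After 66 control probe sets were left out, 12422 were tested. Sizes are log2 changes of 3 h minus 0 h, taken after 16 had been added to each signal, so that a change of a dim transcript is understated. A probe set was called when its p from limma, a linear model with a variance shared across probe sets, was below 0.05 after Benjamini-Hochberg adjustment over all 12422. The error given with a log2 change is that model's standard error (SE), with 3 arrays at each time. Signals are given array by array in the order A, B, C, on the authors' scale. They serve to compare 1 probe set between arrays and not 1 gene with another.

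After 3 h, 132 probe sets were called, which is 1.06% of those tested. Of these, 94 were higher at 3 h (0.757%) and 38 were lower (0.306%). At an unadjusted p below 0.05 there were 1036 probe sets, or 8.34%. The higher ones had a median log2 change of 0.91 and the lower ones of −1.28, against 0.00076 over all probe sets tested. Of the higher ones, 36 reached a 2-fold change and 2 a 4-fold change. Of the lower ones, 24 reached a 2-fold change and 6 a 4-fold change. In all 132 the 3 arrays of 3 h lay entirely above or entirely below the 3 of 0 h, which was also true of 1929 (15.5%) of all probe sets tested. The called probe sets that carried 1 gene symbol named 86 genes higher and 35 genes lower. Each fit was repeated without 1 of the 6 arrays at a time. Of the 63 called genes named here, 38 stayed called whichever array was left out. The other 25 lost the call without at least 1 array, and those arrays are given with the adjusted p that resulted.

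**Figure D1:**
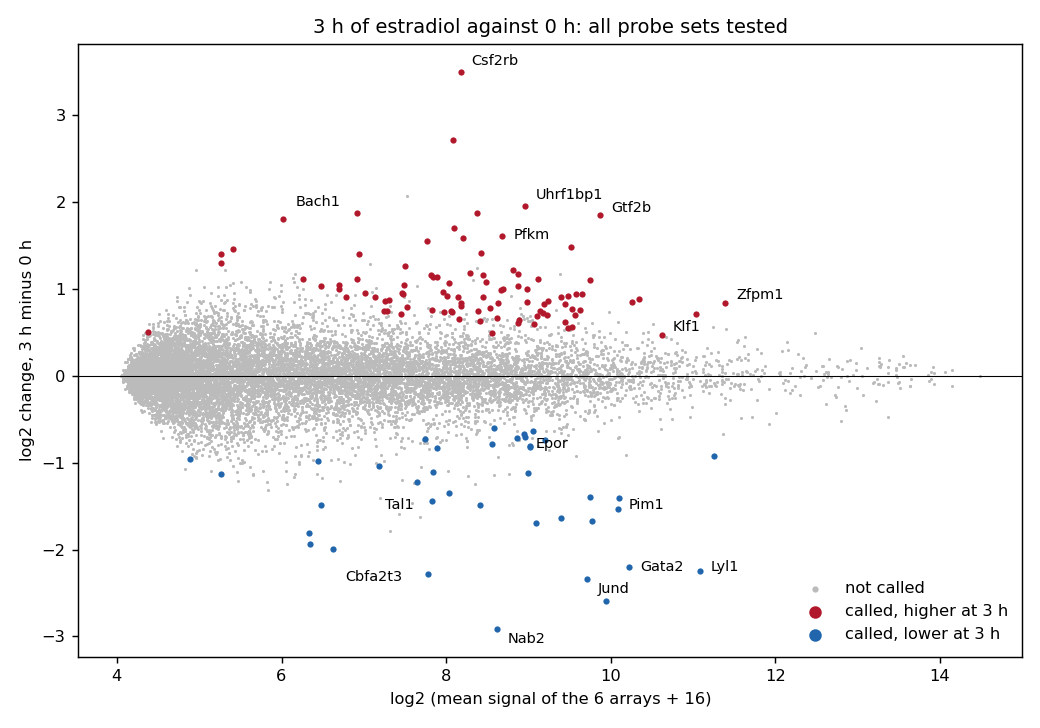
Each point is 1 of the 12422 probe sets tested, with the log2 of the mean signal of the 6 arrays plus 16 on the horizontal axis and the log2 change of 3 h minus 0 h on the vertical axis. The 94 probe sets called higher (red) and the 38 called lower (blue) are spread over most of the signal range, with Csf2rb highest at 3.50 and Nab2 lowest at −2.91.

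The 6 arrays were alike in level and in correlation, though single arrays stood apart for some genes described below. The trimmed mean of each of the 6 arrays was 150.1, so the deposited values had been brought to a common level, which does not show even quality. Their median signals were 40.3 to 41.5 at 3 h and 40.45 to 46.9 at 0 h. Over all probe sets, 2 arrays of 3 h correlated at 0.971 to 0.974, 2 arrays of 0 h at 0.969 to 0.971, and an array of 3 h with one of 0 h at 0.964 to 0.969. Erythroid markers were present at both times. Klf1, the red cell Krüppel-like factor, read 1635.9, 2070.0 and 1742.8 at 3 h, against 1283.3, 1384.2 and 1240.5 at 0 h. Hba-a1, the adult alpha globin gene, read 5495.0, 5073.9 and 6365.4 at 3 h, against 7033.7, 5306.9 and 5842.3 at 0 h, and the groups overlapped. Hbb-b2, an adult beta globin gene, read 1716.1, 1975.7 and 2087.2 at 3 h, against 1747.2, 1399.1 and 1159.6 at 0 h, with a small overlap as well. Markers of megakaryocytes, mast cells, neutrophils and macrophages, lymphocytes and fibroblasts were listed too, and 0 of the 11, 15, 22, 20 and 21 measured members were called. In these lists 10, 11, 13, 11 and 11 members were below a signal of 50 on all 6 arrays. The summed signal of the mast cell list was 540.5 to 654.9 at 3 h, against 678.0 to 802.5 at 0 h, and that of the lymphocyte list was 465.4 to 618.8, against 629.8 to 763.3. That of the megakaryocyte list was 719.3 to 928.0 at 3 h, against 933.7 to 1247.8 at 0 h, and most of it came from Nfe2, which erythroid cells use as well. The sums of the neutrophil and macrophage list and of the fibroblast list overlapped between the times. The part of these shifts in the results was not tested. The samples were bulk RNA, in which fewer cells with a transcript and less of it per cell cannot be told apart.

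Because the activated protein binds DNA, the sequence before the starts of the genes was read as well. RefSeq promoter windows of the mouse build GRCm38.p6 were found for 72 of the 86 genes higher and 27 of the 35 genes lower, and a gene with several listed starts had several windows. Each window ran from 250 bases before the start to 50 bases after it. The hexamers searched on both strands were those that Gata factors are known to prefer. They begin with A, as in AGATAA and in the form AGATAG, or with T, as in TGATAA and in the form TGATAG. On the other strand AGATAA is written TTATCT, and TGATAA is then written TTATCA. At least 1 of these GATA hexamers was present in 21 of 99 windows of the genes higher at 3 h (21.2%) and in 5 of 43 windows of the genes lower (11.6%), against 1736 of 8408 windows (20.6%) of all genes on the array with 1 symbol. The E-box CAGCTG was present in 16.2% of the windows of higher genes and in 20.9% of those of lower genes, against 15.5% of all windows. The E-box CACGTG, which is its own reverse complement like the other, was present in 17.2% and 14.0%, against 9.55% of all windows. Windows of the same gene can overlap, so the counts are also given by gene. A GATA hexamer was present in 15 of 72 genes higher, 5 of 27 genes lower and 1585 of all 6572 genes with a window. CAGCTG was present in 13, 8 and 1177 of these genes, and CACGTG in 15, 5 and 753. These differences were not tested. A match is a string of letters and not a shown binding site. The 250 bases before the start of 3 called genes that rose and 3 that fell are printed here with the hexamers in capitals. They were picked because they hold one and because the genes belong to the groups described next.
Pfkm: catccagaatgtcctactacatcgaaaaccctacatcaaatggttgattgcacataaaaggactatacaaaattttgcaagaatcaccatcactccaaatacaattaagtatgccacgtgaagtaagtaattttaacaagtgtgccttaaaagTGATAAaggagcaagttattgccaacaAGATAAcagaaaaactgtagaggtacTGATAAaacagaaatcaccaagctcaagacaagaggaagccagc
Ptdss2: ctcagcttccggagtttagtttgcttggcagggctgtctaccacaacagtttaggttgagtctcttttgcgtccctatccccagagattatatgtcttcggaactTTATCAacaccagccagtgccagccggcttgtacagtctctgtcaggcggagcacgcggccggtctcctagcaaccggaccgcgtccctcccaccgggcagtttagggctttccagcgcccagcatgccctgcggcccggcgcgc
Klf1: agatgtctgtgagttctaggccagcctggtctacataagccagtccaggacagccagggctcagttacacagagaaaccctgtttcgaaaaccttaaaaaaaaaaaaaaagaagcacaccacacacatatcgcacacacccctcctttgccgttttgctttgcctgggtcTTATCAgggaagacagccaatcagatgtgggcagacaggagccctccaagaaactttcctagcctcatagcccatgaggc
Epor: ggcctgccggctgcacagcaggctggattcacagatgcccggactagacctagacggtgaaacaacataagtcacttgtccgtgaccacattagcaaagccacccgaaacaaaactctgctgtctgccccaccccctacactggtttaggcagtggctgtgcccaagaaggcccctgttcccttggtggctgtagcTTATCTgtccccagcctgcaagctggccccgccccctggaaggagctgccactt
Tal1: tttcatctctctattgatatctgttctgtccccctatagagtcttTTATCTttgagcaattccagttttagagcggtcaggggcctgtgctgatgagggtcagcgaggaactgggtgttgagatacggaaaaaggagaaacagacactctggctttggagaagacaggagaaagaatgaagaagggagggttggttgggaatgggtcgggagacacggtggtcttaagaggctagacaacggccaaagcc
Cbfa2t3: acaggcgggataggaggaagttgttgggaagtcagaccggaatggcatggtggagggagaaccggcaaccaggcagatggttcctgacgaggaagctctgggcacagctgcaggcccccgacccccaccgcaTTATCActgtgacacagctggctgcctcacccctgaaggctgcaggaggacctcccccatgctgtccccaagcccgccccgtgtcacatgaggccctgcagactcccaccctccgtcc
The windows lie at chr15:98092339-98092588 on the plus strand for Pfkm, at chr7:141131036-141131285 on the plus strand for Ptdss2 and at chr8:84901732-84901981 on the plus strand for Klf1. Those of the genes that fell lie at chr9:21963577-21963826 on the minus strand for Epor, at chr4:115056176-115056425 on the plus strand for Tal1 and at chr8:122699110-122699359 on the minus strand for Cbfa2t3. Each reads 5′ to 3′ along the gene and ends at the base before a listed start. The window of Pfkm, at 1 of its listed starts, holds 3 hexamers, which begin 97, 70 and 44 bases before the start. Those of the other genes hold 1 each, which begins 145 bases before the start in Ptdss2, 80 in Klf1, 54 in Epor, 205 in Tal1 and 118 in Cbfa2t3. The 250 bases before the other listed starts of Pfkm held 2, 1 and 0, and the windows with 2 and 1 overlap. Tal1 and Cbfa2t3 each have another listed start, and the 250 bases before it held 0. The 250 bases before the listed starts of Gata2, Zfpm1, Gtf2b, Nab2, Jund and Lyl1 held 0 of these hexamers.

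The list counts from here on stand beside 0.757% of all probe sets called higher and 0.306% called lower. Because the lists were chosen with earlier results of these data known, their counts are a description and do not test the lists. Of the 7 Gata factors and Friends of Gata measured, 1 rose and 1 fell, and the median log2 change was −0.18. Zfpm1, which codes for Friend of Gata-1, read 3989.1, 3030.2 and 3321.4 at 3 h, against 1756.3, 1668.1 and 2253.9 at 0 h. All 3 arrays of 3 h were above all 3 of 0 h, and it rose by 0.84 (SE 0.15, adjusted p = 0.00417). When only the 6 arrays of 3 h and 0 h were fitted, its adjusted p was 0.0590. Gata2, which stem cells and early progenitors rely on, read 401.6, 611.3 and 349.8 at 3 h, against 2091.9, 1939.7 and 1695.9 at 0 h. The 3 h arrays lay far below the 0 h arrays, and Gata2 fell by 2.20 on the log2 scale (SE 0.23, adjusted p = 1.7e-05). A second Gata2 probe set, of a kind that can read several transcripts, was at or below 17.3 on all 6 arrays and was not called. Gata1 itself read 125.7, 150.1 and 136.2 at 3 h, against 200.6, 156.8 and 269.2 at 0 h. The groups did not overlap, but the difference was not called (−0.50, SE 0.21, adjusted p = 0.481), and a second Gata1 probe set stood at −0.01. Which part of the disrupted gene or of the fusion these probes read was not given, so Gata1 signals check neither. Gata3, Gata4, Gata6 and Zfpm2 were not called, and Gata4 had the largest difference of them at −1.02 (adjusted p = 0.422).

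In the list of the Tal1 and Ldb1 complex, 3 of 18 measured members fell and 0 rose, with a median of −0.06. Tal1 is the basic helix-loop-helix factor of the complex. It read 118.2, 114.6 and 78.6 at 3 h, against 386.0, 324.1 and 244.7 at 0 h, so that the highest array of 3 h was below the lowest of 0 h (−1.45, SE 0.25, adjusted p = 0.00434). Lyl1, a close relative of Tal1 that pairs with the same partners, read 653.6, 826.7 and 899.7 at 3 h, against 3690.2, 3478.3 and 3348.5 at 0 h. This probe set fell by 2.25 on the log2 scale (SE 0.18, adjusted p = 4.54e-07). It is of a kind that may read related transcripts, but the plain Lyl1 probe set fell too (−2.59, SE 0.29). Its arrays read 221.0, 308.9 and 338.3 at 3 h, against 1634.5, 1781.4 and 1499.8 at 0 h. Cbfa2t3, the corepressor Eto2 that sits in Tal1 complexes of progenitors, read 40.2, 65.2 and 65.9 at 3 h, against 422.7, 300.4 and 329.3 at 0 h. It fell by 2.28 on the log2 scale (SE 0.18, adjusted p = 4.54e-07). Its dimmer second probe set differed by −1.22 and was not called (adjusted p = 0.217). The other core members were not called. Lmo2, the bridging protein of the complex, stood at 0.39 (adjusted p = 0.489), Ldb1, its looping partner, at −0.18 (adjusted p = 0.951) and Tcf3, which pairs with Tal1, at −0.04 (adjusted p = 0.995). Gfi1b, a repressor that red cell precursors need, read 914.1, 1157.5 and 1046.2 at 3 h, against 643.3, 725.2 and 682.6 at 0 h. Its arrays did not overlap, yet it missed the threshold (0.61, SE 0.16, adjusted p = 0.0895).

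Among erythroid transcription factors, 4 of 18 measured members rose and 0 fell, with a median of 0.19. Klf1 rose by 0.47 (SE 0.11, adjusted p = 0.0485). Its array values, given above, did not overlap. Bach1, a repressor that heme releases from DNA, read 245.4, 188.5 and 81.7 at 3 h, against 57.6, 51.3 and 5.2 at 0 h. The spread was wide at both times, with array C lowest in each, and the change was 1.88 (SE 0.36, adjusted p = 0.00922). Its second probe set stood at 1.07 and was not called (adjusted p = 0.461). Mafk, a small Maf protein that pairs with Bach1 and with Nfe2 proteins, read 359.6, 314.4 and 377.7 at 3 h, against 142.3, 239.3 and 210.6 at 0 h (0.80, SE 0.17, adjusted p = 0.0222). Nfe2l2, the antioxidant factor Nrf2 that binds the same DNA element as Bach1, read 406.3, 433.0 and 474.1 at 3 h, against 275.0, 207.9 and 197.6 at 0 h. Its groups were apart and it rose by 0.91 (SE 0.15, adjusted p = 0.00287). Nfe2, the erythroid member of that family, read 573.0, 771.6 and 697.5 at 3 h, against 785.0, 1064.9 and 977.4 at 0 h, and was not called (−0.50, adjusted p = 0.217). Klf3, a Krüppel-like repressor, stood at −0.75 (adjusted p = 0.0671). The call of Klf1 ended without any 1 of the 6 arrays (adjusted p = 0.0622 to 0.268), that of Mafk without 3 h A, 3 h C or 0 h A (adjusted p = 0.0985 to 0.128) and that of Bach1 without 3 h A or 3 h B (adjusted p = 0.0606 to 0.0805).

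Cytokine receptors and their signalling proteins moved both ways: 1 of 31 measured members rose and 4 fell, with a median of −0.20. Csf2rb, the chain shared by the receptors for interleukin 3, interleukin 5 and GM-CSF, had the largest rise of the called probe sets. It read 627.7, 496.2 and 420.2 at 3 h, against 55.2, 18 and 23.1 at 0 h, and the lowest array of 3 h was several times the highest of 0 h (3.50, SE 0.32, adjusted p = 2.89e-06). A probe set that carries the symbols of both Csf2rb and its close copy Csf2rb2 read 496.1, 383.1 and 327.6 at 3 h, against 110.9, 132.1 and 90.3 at 0 h, and was called as well (1.71, adjusted p = 0.00281). The probe set of Csf2rb2 alone read 202.4, 166.3 and 156.3 at 3 h, against 79.6, 61.6 and 45.3 at 0 h. These arrays did not overlap, but the difference missed the threshold (1.29, SE 0.32, adjusted p = 0.0644). The ligand-binding chains Il3ra and Csf2ra stood at −0.03 and 0.01 and were not called.

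The 4 that fell include the receptor of erythropoietin and 2 genes that cytokine signals through Stat5 are known to induce. Epor, that receptor, read 367.9, 356.9 and 394.8 at 3 h, against 582.7, 569.0 and 601.7 at 0 h, with little spread at either time (−0.67, SE 0.11, adjusted p = 0.00298). After scaling to a common median in place of quantile normalization its adjusted p was 0.166. Pim1, a serine kinase that favours survival, read 665.4, 520.2 and 538.5 at 3 h, against 1765.9, 1252.5 and 1706.9 at 0 h, and fell by 1.53 on the log2 scale (SE 0.21, adjusted p = 0.000268). Cish, a feedback inhibitor of Stat5, read 153.4, 155.1 and 151.0 at 3 h, against 361.8, 248.8 and 261.4 at 0 h, where array A was the highest (−0.83, SE 0.18, adjusted p = 0.022). Il4ra, the interleukin 4 receptor chain, was dim at 3 h, with 36.0, 10.1 and 20.9, against 138.1, 138.4 and 151.1 at 0 h (−1.997, SE 0.38). Its second probe set was dim at both times and stood at 0.35. The kinase Jak2 and the factors Stat5a and Stat5b were not called, at 0.23, −0.45 and 0.08. The call of Cish ended without 3 h A, 3 h B, 3 h C or 0 h A (adjusted p = 0.0763 to 0.135) and that of Il4ra without 3 h B (adjusted p = 0.0655).

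**Figure D2:**
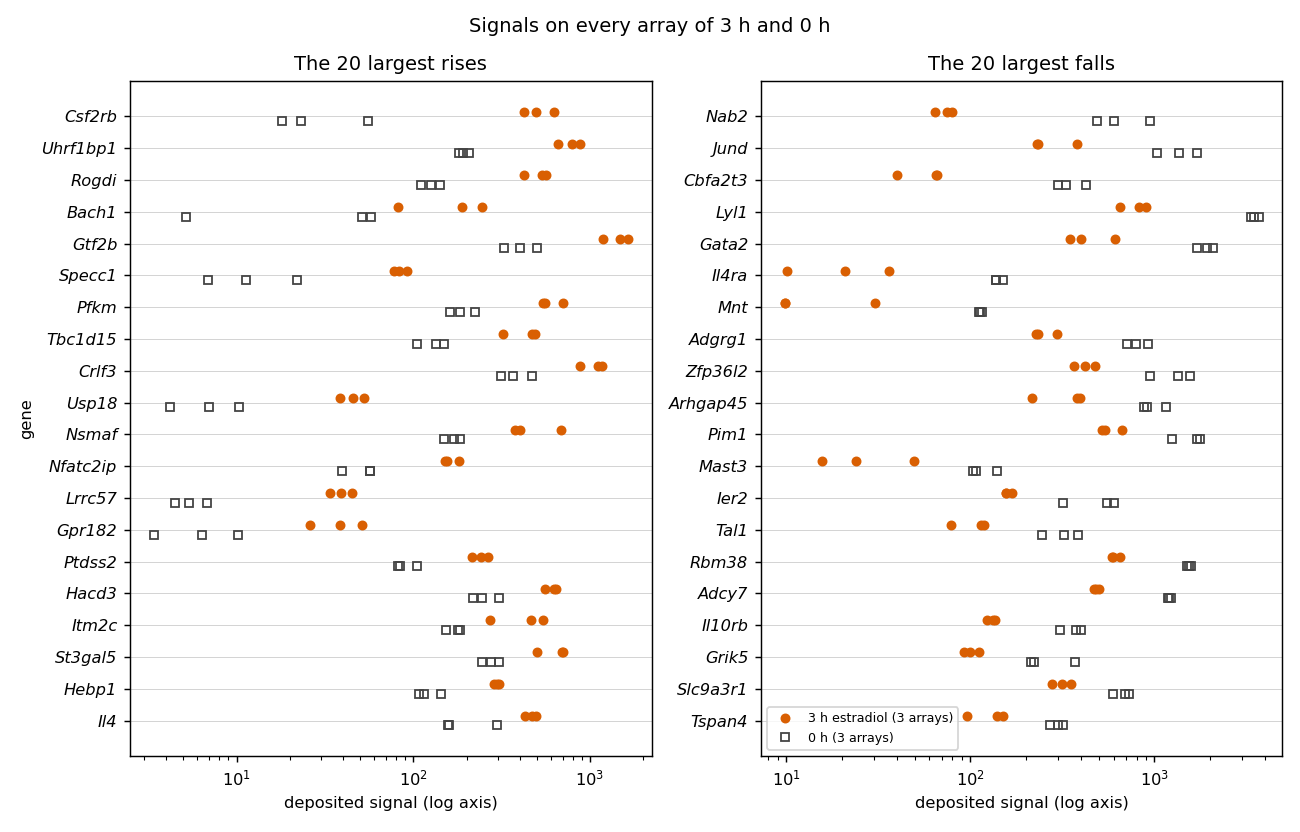
The deposited signal on a log axis is shown for the 20 genes with the largest rises (left) and the 20 with the largest falls (right), with 3 arrays of 3 h as filled orange circles and 3 arrays of 0 h as open grey squares. In each gene the 3 circles lie on 1 side of the 3 squares, and the gap is widest for Csf2rb among the rises and for Nab2 among the falls.

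Among AP-1, Egr and other immediate early genes, which cells switch on within minutes of a stimulus, 4 of 23 measured members fell and 0 rose, with a median of −0.13. Nab2, a corepressor that holds Egr factors in check, read 64.2, 74.5 and 79.3 at 3 h, against 602.8, 490.0 and 948.8 at 0 h. This was the largest fall of any gene called (−2.91, SE 0.32, adjusted p = 2.61e-05). Jund, a subunit of the AP-1 factors, read 377.9, 234.3 and 231.3 at 3 h, against 1712.5, 1028.3 and 1357.7 at 0 h, and fell by 2.34 on the log2 scale (SE 0.33, adjusted p = 0.000561). Array A was the highest in both groups. Ier2, a nuclear immediate early protein, read 155.7, 156.6 and 168.2 at 3 h, against 318.1, 551.3 and 602.3 at 0 h, where array A was the lowest (−1.48, SE 0.20). Klf10, a factor that TGF-beta induces, fell on its brighter probe set (−1.04, SE 0.21, adjusted p = 0.0155) and on its other one (−1.81, SE 0.33, adjusted p = 0.00641). The brighter one read 78.8, 66.1 and 87.2 at 3 h, against 181.8, 194.4 and 170.3 at 0 h, and its call ended without 3 h A, 3 h B, 0 h A, 0 h B or 0 h C (adjusted p = 0.0507 to 0.0967). Egr1 read 194.0, 299.1 and 228.7 at 3 h, against 236.6, 759.3 and 792.2 at 0 h, and overlapped, with 0 h array A near the 3 h arrays (−1.12, adjusted p = 0.476). Fos and Jun were below 20 on all 6 arrays. Btg2, an antiproliferative gene of this list, read 581.0, 678.0 and 426.1 at 3 h, against 259.4, 259.6 and 355.8 at 0 h, apart but not called (0.92, SE 0.22, adjusted p = 0.0532).

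In the network around Myc, 1 of 10 measured members fell, and the median of −0.45 was the lowest of the 32 lists. Mnt, a Max partner that opposes Myc, read 30.4, 9.8 and 9.8 at 3 h, against 113.4, 116.0 and 111.4 at 0 h (−1.94, SE 0.36, adjusted p = 0.00733). Its 0 h arrays were nearly equal, and 2 of its 3 h arrays lay close to the dim end of the scale. The call ended without 3 h B (adjusted p = 0.0519). Myc read 149.1, 142.0 and 169.7 at 3 h, against 250.6, 252.3 and 248.0 at 0 h, with no overlap, and was not called (−0.64, SE 0.27, adjusted p = 0.506).

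Of 20 progenitor regulators measured, 1 fell and 0 rose, with a median of −0.07. Adgrg1, an adhesion receptor of blood stem cells, read 232.5, 226.3 and 295.0 at 3 h, against 791.9, 711.0 and 924.3 at 0 h. The groups were far apart (−1.69, SE 0.24, adjusted p = 0.000561). Other hallmark genes of progenitors were not called at this time. The factor Myb stood at −0.06 (adjusted p = 0.995), the stem cell factor receptor Kit at −0.20 (adjusted p = 0.977) and Spi1, the myeloid factor Pu.1, at −0.08 (adjusted p = 0.993).

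Outside the lists of sequence-specific factors, 1 of 14 general transcription factors rose and 1 of 38 chromatin regulators fell. Some chromatin genes that the chromatin list did not hold were called higher, among them Kmt5c and H2az2, which are described below. Gtf2b, which codes for TFIIB, the factor that places RNA polymerase II at the start site, read 1636.6, 1472.1 and 1190.2 at 3 h, against 501.2, 324.9 and 402.6 at 0 h. Its change of 1.85 (SE 0.16, adjusted p = 1.12e-06) stood beside a median of 0.05 for its list. Sin3a, the scaffold of a histone deacetylase complex, read 273.3, 289.7 and 313.8 at 3 h, against 434.5, 400.0 and 494.7 at 0 h (−0.60, SE 0.13, adjusted p = 0.0313). None of the remaining 13 general factors was called, and Tbp, which binds the TATA box, stood at 0.25. The call of Sin3a ended without 3 h A, 3 h B, 3 h C, 0 h A or 0 h C (adjusted p = 0.0528 to 0.171).

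The genes that make the mature red cell are read against the 1.06% called over all probe sets. Of 5 globins, 6 iron genes and 14 genes of the red cell membrane and skeleton, 0 were called, with medians of −0.13, −0.10 and 0.05. At an unadjusted p below 0.05 there were 1, 1 and 3 of them, against 8.34% of all probe sets. These lists did not hold every gene of their kind, and a called iron gene outside them is given among the remaining calls. Of 11 heme genes 1 rose and 4 had an unadjusted p below 0.05, and the median was 0.26. Of the 11, 6 stood above 0 and 5 below, with a lowest value of −0.71. Their summed signal was 7543.9 to 7744.6 at 3 h, against 5566.7 to 7210.1 at 0 h. The sum includes the called gene, Tmem14c, whose mean signal was 2610 at 3 h, against 1554 at 0 h. Tmem14c, a mitochondrial inner membrane protein that heme precursors need for transport, read 2576.4, 2648.6 and 2604.6 at 3 h, against 1669.1, 1512.5 and 1479.7 at 0 h, with arrays close together at each time. It rose by 0.72 (SE 0.11, adjusted p = 0.00165). Alas2, the erythroid form of the enzyme that starts heme synthesis, read 249.1, 222.5 and 188.0 at 3 h, against 124.4, 106.8 and 93.9 at 0 h. These groups were apart but just missed the threshold on a probe set that may read related transcripts (0.91, SE 0.22, adjusted p = 0.0583). Among 14 red cell enzymes 1 rose: Ampd3, the AMP deaminase of red cells, read 155.7, 165.8 and 122.1 at 3 h, against 52.7, 49.2 and 82.9 at 0 h (1.11, SE 0.22, adjusted p = 0.014). Its call ended without 3 h A, 3 h B, 0 h A or 0 h B (adjusted p = 0.0775 to 0.0856).

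Of 15 glycolysis genes 1 rose, against a median of −0.22 for the list, of which 12 members stood below 0. Pfkm, the muscle form of phosphofructokinase, which sets the pace of glycolysis, read 704.5, 539.9 and 559.1 at 3 h, against 184.7, 160.8 and 223.3 at 0 h. The groups were well apart (1.62, SE 0.18, adjusted p = 3.32e-05). The liver form Pfkl read 945.9, 785.5 and 686.5 at 3 h, against 1264.9, 1125.7 and 2063.4 at 0 h, and the platelet form Pfkp read 199.5, 190.5 and 218.9, against 271.2, 296.4 and 558.7. In both of them the 3 h arrays were the lower ones and 0 h array C was the highest, and neither was called (−0.91 and −0.75, adjusted p = 0.601 and 0.686). The same 0 h array was highest for Slc2a1, the glucose transporter Glut1, which read 62.1, 45 and 53.3 at 3 h, against 83.2, 190.0 and 507.1 at 0 h (−1.59, adjusted p = 0.650). It was highest too for Bnip3, a mitophagy gene that low oxygen induces, with 96.7, 72.7 and 66.6 at 3 h, against 245.1, 149.7 and 429.4 at 0 h (−1.47, adjusted p = 0.560). Pfkm stayed called without that array.

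Lipid and vesicle genes had a few called members. Of 22 genes of cholesterol and lipid synthesis, 1 rose and 1 fell, with a median of −0.17. Ptdss2, a phosphatidylserine synthase, read 241.1, 264.2 and 213.9 at 3 h, against 105.4, 81.5 and 84.5 at 0 h, and rose by 1.26 (SE 0.12, adjusted p = 3.84e-06). Scd2, a desaturase of fatty acids, read 1643.8, 1579.6 and 1922.7 at 3 h, against 2797.4, 3354.2 and 3203.2 at 0 h (−0.92, SE 0.18, adjusted p = 0.0118). Its second probe set, of the uncertain kind, overlapped between the times and was not called (−0.24). Of 25 Rab proteins and their regulators 2 rose, with a median of −0.01. Tbc1d15, which switches off the late endosome protein Rab7, read 488.2, 472.0 and 323.1 at 3 h, against 104.7, 150.1 and 134.2 at 0 h. It rose on both probe sets, by 1.59 (SE 0.20) and by 1.12 (SE 0.19). Rab18, a small GTPase of the endoplasmic reticulum and lipid droplets, read 819.4, 672.2 and 684.2 at 3 h, against 419.4, 407.2 and 389.0 at 0 h (0.83, SE 0.13, adjusted p = 0.0014). The call of Scd2 ended without 3 h A, 3 h B, 0 h B or 0 h C (adjusted p = 0.0617 to 0.0711).

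Of 36 DNA replication genes 1 rose: Cdc6, which loads the replicative helicase at origins, read 814.7, 878.7 and 898.6 at 3 h, against 456.7, 529.8 and 496.7 at 0 h (0.82, SE 0.11, adjusted p = 0.000337). The median of the list was 0.16, and 29 members stood above 0 and 7 below. Of 27 mitosis genes 0 were called, yet all 27 had a log2 change above 0, with a median of 0.20 and a highest value of 0.73. Over all probe sets tested, 6227 stood above 0 and 6195 below. Genes of 1 list can move together within a culture, so the 27 are not 27 separate observations. Their shared direction was not tested. At an unadjusted p below 0.05 there were 7 of the 27 mitosis genes. Ccna2, cyclin A2, came closest, with 1225.0, 1525.4 and 1149.9 at 3 h, against 821.6, 840.8 and 881.8 at 0 h (0.62, SE 0.16, adjusted p = 0.0717). Of 13 G1 cyclins and kinases and 13 cell cycle inhibitors and antiproliferative genes, 0 were called, with medians of −0.0024 and −0.018. The share called over these 4 lists was close to the 1.06% of all probe sets.

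Further lists held 0 called members. At the 1.06% called over all probe sets, most lists of this size would hold none, so this does not show them to be unchanged. They were apoptosis regulators (21 measured, median −0.0020), autophagy and lysosome genes (21, −0.05), ribosome biogenesis (30, −0.12), heat shock and the unfolded protein response (25, −0.01) and the interferon response (25, −0.01). Of 19 genes listed as estrogen receptor targets of other tissues, 1 was called, Cdc6, which is also counted among the replication genes, and the median was −0.05. At an unadjusted p below 0.05 these lists held 5, 1, 3, 4, 1 and 2 members, against 8.34% of all probe sets. Hmox1, the heme oxygenase of the iron list, read 146.8, 198.5 and 166.5 at 3 h, against 331.9, 313.5 and 592.1 at 0 h, apart but not called (−1.15, adjusted p = 0.0948).

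**Figure D3:**
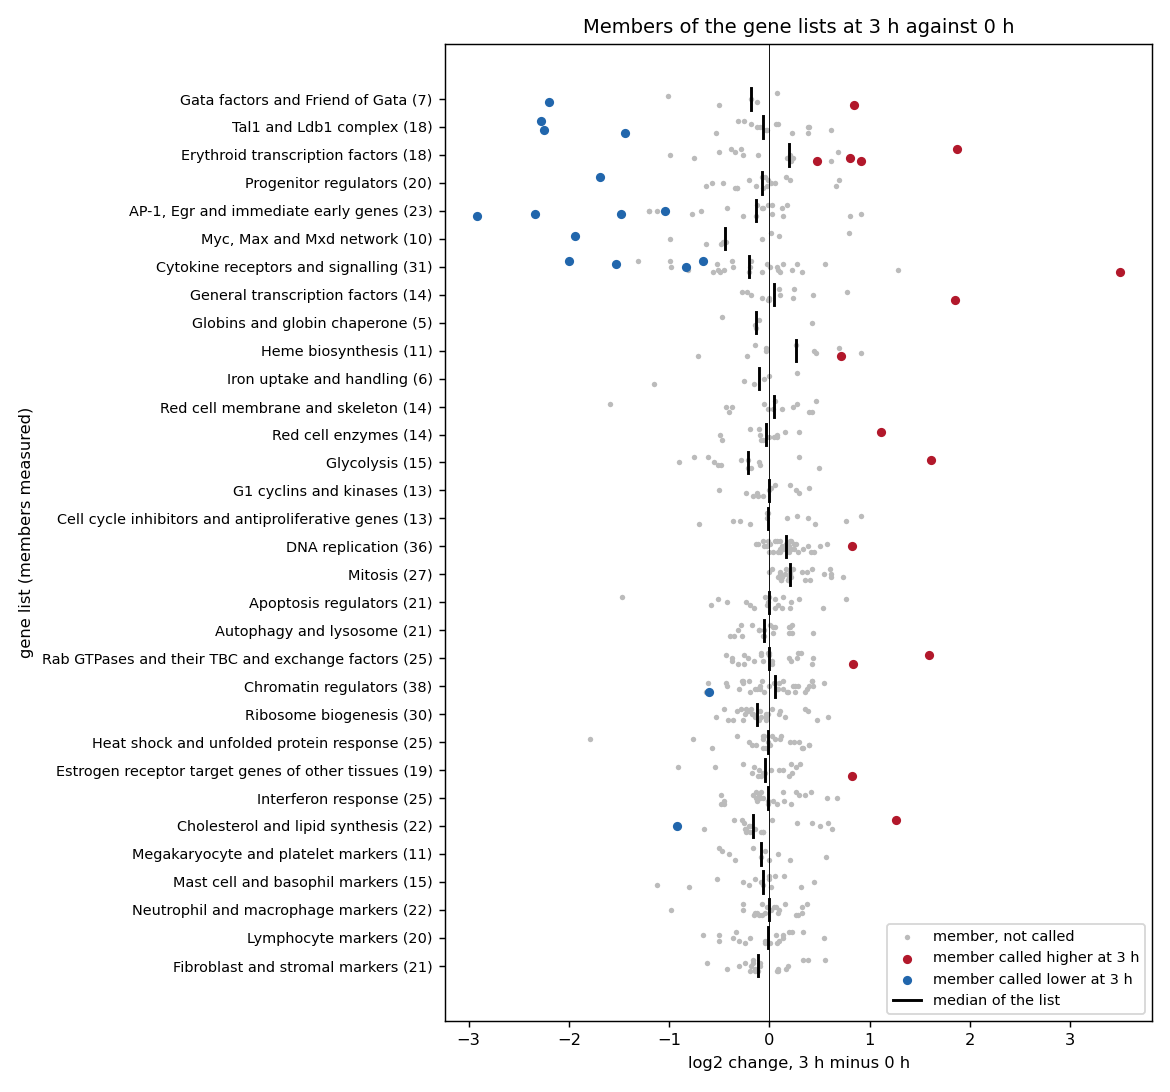
Each point is the log2 change of 3 h minus 0 h of 1 measured member of a list, with members called higher in red, members called lower in blue, the rest in grey and the median of each list as a black bar. Most medians lie near 0, the lists from Tal1 and Ldb1 to cytokine signalling hold most of the blue points, and all 27 mitosis genes lie to the right of 0 without a call.

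Most of the larger rises lay outside the gene lists. Uhrf1bp1, a bridge-like lipid transfer protein, read 786.7, 876.2 and 656.4 at 3 h, against 182.4, 205.9 and 189.9 at 0 h, and rose by 1.96 (SE 0.14, adjusted p = 1.28e-07). Rogdi, a leucine zipper protein, read 560.2, 534.3 and 422.5 at 3 h, against 110.1, 140.9 and 126.5 at 0 h (1.88, SE 0.16). In both genes the arrays of a time were close together and the times far apart. Specc1, a coiled-coil protein, read 92.3, 77.5 and 82.6 at 3 h, against 21.9, 11.3 and 6.9 at 0 h, where it was dim (1.81, SE 0.30). Crlf3, a cytokine receptor-like protein, read 1162.9, 881.5 and 1110.7 at 3 h, against 314.3, 367.6 and 471.3 at 0 h, and rose by 1.48 (SE 0.15, adjusted p = 1.08e-05). Nsmaf, an adaptor that links a TNF receptor to neutral sphingomyelinase, read 373.7, 402.1 and 682.7 at 3 h, against 148.6, 182.9 and 169.0 at 0 h (1.41, SE 0.19). Array C was the highest of its 3 h arrays. Nfatc2ip, which interacts with an NFAT factor, rose by 1.41 (SE 0.16) on a probe set with 180.6, 150.9 and 156.1 at 3 h, against 56.8, 56.7 and 39.5 at 0 h, while its other probe set was at or below 21.6 throughout.

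The 20 largest rises also included Hacd3, St3gal5, Hebp1 and Itm2c. Hacd3, an enzyme of very long chain fatty acid elongation, read 643.2, 556.5 and 626.9 at 3 h, against 303.6, 244.1 and 217.6 at 0 h (1.22, SE 0.13, adjusted p = 1.7e-05). St3gal5, which makes the ganglioside GM3, read 694.9, 704.6 and 499.5 at 3 h, against 275.3, 243.7 and 307.0 at 0 h (1.17, SE 0.14). Both were separate between the times, though the probe set of St3gal5 may read related transcripts. Hebp1, a heme-binding protein, read 287.4, 306.9 and 296.4 at 3 h, against 142.8, 107.2 and 115.4 at 0 h, with hardly any spread at 3 h (1.17, SE 0.15, adjusted p = 0.000162). Itm2c, a small integral membrane protein, read 460.3, 542.0 and 271.9 at 3 h, against 179.4, 183.0 and 152.5 at 0 h (1.19, SE 0.28, adjusted p = 0.0465). Its 3 h arrays were spread widely and its call ended without 3 h A, 3 h B, 0 h A, 0 h B or 0 h C (adjusted p = 0.104 to 0.242).

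Some rises rested on dim probe sets. Usp18, which removes the ubiquitin-like Isg15 and curbs interferon signals, read 52.6, 38.7 and 45.8 at 3 h, against 10.3, 7.0 and 4.2 at 0 h (1.46, SE 0.32, adjusted p = 0.026). Lrrc57, a protein with leucine-rich repeats, read 45, 33.8 and 38.8 at 3 h, against 6.8, 5.4 and 4.5 at 0 h (1.40, SE 0.26). Gpr182, an atypical chemokine receptor of endothelium, read 25.9, 51.0 and 38.3 at 3 h, against 10.2, 6.4 and 3.4 at 0 h (1.30, SE 0.26). None of these reached 60 on any array of the 6. Il4, the cytokine interleukin 4, was called on 1 of its 4 probe sets, of the kind that may read related transcripts, with 493.3, 471.3 and 426.8 at 3 h, against 299.0, 158.8 and 157.6 at 0 h (1.16, SE 0.22). Of the other Il4 probe sets, the plain one read 59.2, 56.9 and 74.8 at 3 h, against 42.6, 8.6 and 37.1 at 0 h, and was not called (0.92, adjusted p = 0.153). The call of Usp18 ended without any 1 of the 6 arrays (adjusted p = 0.0606 to 0.127), that of Gpr182 without 3 h B, 3 h C, 0 h B or 0 h C (adjusted p = 0.053 to 0.0923) and that of Il4 without 0 h B or 0 h C (adjusted p = 0.0552 to 0.0626). With a constant of 64 in place of 16, Lrrc57 had an adjusted p of 0.0531.

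Of the 20 largest falls, 9 lay outside the paragraphs on gene lists. Zfp36l2, which speeds the decay of AU-rich messenger RNAs and is needed by early erythroid progenitors, read 417.4, 476.2 and 367.6 at 3 h, against 946.7, 1571.0 and 1350.9 at 0 h (−1.67, SE 0.20, adjusted p = 6.25e-05). Its 2 other probe sets, both of the uncertain kind, stood at −0.77 and −0.56 and were not called. Rbm38, an RNA-binding protein of splicing and transcript stability, read 596.5, 649.1 and 585.1 at 3 h, against 1504.6, 1551.7 and 1581.1 at 0 h. Its arrays were tight at both times (−1.41, SE 0.12, adjusted p = 1.12e-06). Arhgap45 read 380.3, 394.9 and 217.6 at 3 h, against 878.5, 909.8 and 1153.1 at 0 h (−1.63, SE 0.19). Adcy7, an adenylyl cyclase, read 471.4, 499.6 and 484.7 at 3 h, against 1199.3, 1184.6 and 1237.2 at 0 h, with groups that were narrow and far apart (−1.39, SE 0.17). Slc9a3r1, a scaffold under the membrane, read 279.3, 313.5 and 350.5 at 3 h, against 598.2, 689.2 and 728.6 at 0 h (−1.12, SE 0.19), and its adjusted p was 0.050005 after scaling to a common median. Il10rb, a chain of the interleukin 10 receptor, read 135.8, 133.5 and 123.5 at 3 h, against 305.5, 376.8 and 400.0 at 0 h (−1.34, SE 0.26).

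Mast3, a microtubule-associated kinase, read 23.8, 49.5 and 15.6 at 3 h, against 108.0, 103.0 and 140.1 at 0 h (−1.49, SE 0.31, adjusted p = 0.0203). Grik5, a subunit of kainate receptors, read 111.5, 92.0 and 99.4 at 3 h, against 214.8, 221.0 and 370.1 at 0 h (−1.22, SE 0.24), and its other probe set overlapped between the times. Tspan4, a tetraspanin, read 151.4, 96.3 and 140.0 at 3 h, against 318.5, 299.6 and 269.4 at 0 h (−1.11, SE 0.26, adjusted p = 0.0422). The 3 h arrays of each were below the 0 h arrays. The call of Mast3 ended without 3 h A, 3 h C, 0 h A, 0 h B or 0 h C (adjusted p = 0.0539 to 0.119), that of Grik5 without 3 h B or 0 h C (adjusted p = 0.0655 to 0.0954), that of Tspan4 without any 1 of the 6 arrays (adjusted p = 0.0775 to 0.218) and that of Il10rb without 0 h B or 0 h C (adjusted p = 0.0503 to 0.0541).

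Another 10 genes were taken as examples of the remaining calls, and all of them rose. Reep5, which shapes the endoplasmic reticulum, read 1773.0, 1473.4 and 1390.0 at 3 h, against 1036.2, 828.1 and 734.4 at 0 h (0.86, SE 0.14), with an adjusted p of 0.0570 when only the 6 arrays of 3 h and 0 h were fitted. Rpia, an enzyme of the pentose phosphate pathway, read 1640.2, 1573.1 and 1753.6 at 3 h, against 1044.2, 858.1 and 852.1 at 0 h (0.89, SE 0.18). The other Reep5 probe set was dimmer, overlapped and was not called (0.24). Dstn, which takes actin filaments apart, read 1053.2, 967.9 and 905.8 at 3 h, against 506.0, 542.1 and 496.7 at 0 h and rose by 0.94 (SE 0.11, adjusted p = 7.91e-05). Kmt5c, which methylates histone H4 in silent chromatin, read 1011.9, 943.3 and 947.7 at 3 h, against 573.0, 588.1 and 580.7 at 0 h, with tight arrays in both groups (0.76, SE 0.11, adjusted p = 0.000768). Ppp1r15b, a subunit of the phosphatase that restores the initiation factor eIF2 alpha, rose by 0.77 (SE 0.14), and Wdr92 and Prelid3b rose by 1.10 and 0.94. Cul4a, the scaffold of a ubiquitin ligase, rose by 0.70, and H2az2, a histone variant of the H2A.Z kind, by 0.55 (adjusted p = 0.0373 and 0.0321). Hif1a, the oxygen-regulated factor, read 965.6, 842.5 and 784.4 at 3 h, against 542.7, 589.0 and 623.3 at 0 h, and rose on both of its probe sets, by 0.56 and 0.62, each of the uncertain kind. In each of the 10 the 3 h arrays lay above the 0 h arrays. The calls ended without 3 h A, 3 h B, 0 h B or 0 h C (adjusted p = 0.0576 to 0.126) for Wdr92, without 3 h A, 3 h C, 0 h A or 0 h B (adjusted p = 0.0833 to 0.127) for Prelid3b, without 3 h A, 3 h C, 0 h B or 0 h C (adjusted p = 0.0602 to 0.0803) for Rpia, without 3 h A (adjusted p = 0.0571) for Ppp1r15b, without any 1 of the 6 arrays (adjusted p = 0.0637 to 0.138) for Cul4a, without 3 h A, 3 h B, 3 h C, 0 h B or 0 h C (adjusted p = 0.0655 to 0.171) for H2az2 and without 3 h A, 3 h B, 0 h A, 0 h B or 0 h C (adjusted p = 0.0582 to 0.198) for Hif1a.

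Of the called genes not named so far, 48 rose, by 0.49 to 1.14, and 10 fell, with log2 changes of −1.13 to −0.63. Among them 2 that rose and 3 that fell were called only on a probe set other than the brightest of the gene, which the naming rule did not consider, and they are named here after their values were seen. Abca1, a cholesterol exporter, stood at −1.13 on the called probe set, Nectin2, an adhesion protein, at −0.98 and Dnah8, a dynein of cilia, at −0.96. Their brightest probe sets were not called and stood at −0.70 for Abca1, −0.41 for Nectin2 and 0.68 for Dnah8. Ubqln1, a ubiquitin-binding shuttle protein, stood at 0.65 and Svs4, a seminal vesicle protein, at 0.51, while their brightest probe sets, not called, stood at 0.02 and 0.06. Clcn3, one of the 48, is a chloride and proton exchanger of vesicles. It was singled out after its values were seen and rose on 3 of its 4 probe sets, by 0.92, 0.91 and 1.05. Chd8, a chromatin remodeler among the 48 that lay outside the chromatin list, rose by 0.75 (SE 0.14, adjusted p = 0.00733). Tfr2, transferrin receptor 2, was 1 of the 10 and lay outside the iron list. It read 267.1, 254.0 and 263.6 at 3 h, against 383.8, 455.7 and 545.3 at 0 h (−0.79, SE 0.16, adjusted p = 0.014). Both were also picked after their values were seen. Among the called probe sets, 4 carried no gene symbol. The largest of these, 99922_at, had the smallest p of the comparison, and it too was picked after its values were seen. It read 455.7, 457.5 and 446.5 at 3 h, against 40.9, 67.8 and 59.1 at 0 h (2.71, SE 0.15, adjusted p = 4.26e-09). The others were 104745_at at 1.55, 94920_at at 0.65 and 160379_at at −0.81.

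The same transcripts could be followed over the later times. These values are a description, since the genes were chosen for their 3 h and 0 h arrays, and the later comparisons share the 0 h arrays. Of the 38 probe sets called lower, 18 (47.4%) had at 3 h their lowest mean signal of the 6 times, and in 15 of the 18 every array of 7 h lay above every array of 3 h. Over all probe sets tested, 2857 (23.0%) had their lowest mean at 3 h, and in 665 of the 2857 the arrays of 7 h lay above those of 3 h in the same way. The 38 were chosen for 3 h arrays below those of 0 h, so 0 h could not hold their lowest mean. Their share is therefore raised by the choice and does not measure a dip. The means are of deposited signals, whose array medians were 40.3 to 41.5 at 3 h and 42.7 to 47.1 at 7 h. Means of Pim1 at 0, 3, 7, 14, 21 and 30 h were 1575, 575, 1615, 3038, 3637 and 4972, so that its 7 h mean was back at the 0 h level and its 30 h mean was above it. Those of Jund were 1366, 281, 994, 999, 1584 and 3597 and those of Cish were 291, 153, 265, 381, 543 and 793. Each was lowest at 3 h, and at 7 h both were still below the 0 h mean. Epor gave 584, 373, 685, 627, 677 and 574, again lowest at 3 h. Tal1, with 318, 104, 144, 213, 262 and 322, and Rbm38, with 1546, 610.2, 861, 1199, 1534 and 1851, returned by degrees to the 0 h mean or above it by 30 h. Cbfa2t3 gave 351, 57.1, 137, 145, 198 and 250.2, with all later means below that of 0 h, and Arhgap45 gave 980.5, 331, 434, 992, 1326 and 2025.

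Other falls went on. Gata2 gave means of 1909, 454, 338, 142, 125 and 112 at the 6 times, and Lyl1 gave 3506, 793, 765, 209, 101 and 59.1, each lower at every later time than at the one before. Ier2, with 491, 160.2, 139, 83.7, 62.8 and 75.4, Zfp36l2, with 1289.5, 420.4, 429.8, 255, 124 and 185, and Tspan4, with 296, 129, 25.8, 8.47, 7.8 and 8.1, likewise stood far below 0 h from 14 h on. Nab2 gave 681, 72.7, 114, 54.1, 34.4 and 41.8, with a slightly higher mean at 7 h than at 3 h.

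Most probe sets called higher at 3 h also stood above 0 h at the later times. Of the 94 probe sets called higher, 91 had a mean log2 intensity above that of 0 h at 30 h, and 69 stood farther above it then than at 3 h. The 94 were chosen for 0 h arrays below those of 3 h, which favours later means above 0 h. These counts were not taken over all probe sets, so they have no share to stand beside. Of the same 94, 14 (14.9%) had at 3 h their highest mean of the 6 times, against 1551 (12.5%) of all probe sets tested. The choice of the 94 likewise kept 0 h from holding their highest mean. Gtf2b gave means of 409.6, 1433, 1403, 1414, 1749 and 1947 and Crlf3 of 384, 1052, 1017, 1253, 1346 and 1225 at the 6 times, so that most of their rise was made by 3 h. Uhrf1bp1 gave 193, 773, 774, 871, 1349 and 1436. A climb went on to 21 h in Csf2rb, with 32.1, 515, 1467, 3332, 5055 and 4979.8, in Ptdss2, with 90.5, 239.7, 919, 1586, 2093 and 1702, in Hebp1, with 122, 297, 678, 1402, 2386 and 2228, and in Tmem14c, with 1554, 2609.9, 4877, 8304, 10353 and 9229. Pfkm, with 189.6, 601, 1161, 1000.4, 869 and 650.4, had its highest mean at 7 h. Cdc6, with 494, 864, 1299.9, 1667, 1031 and 185, had its highest at 14 h and ended below the 0 h mean. Usp18, with 7.17, 45.7, 27.6, 16.3, 15.2 and 19.9, and Nsmaf, with 167, 486, 344, 329, 244 and 453, had their highest at 3 h, and in both every array of 7 h lay below every array of 3 h. That was so in 4 of the 14 probe sets with their highest mean at 3 h, against 441 of the 1551 over all probe sets tested.

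**Figure D4:**
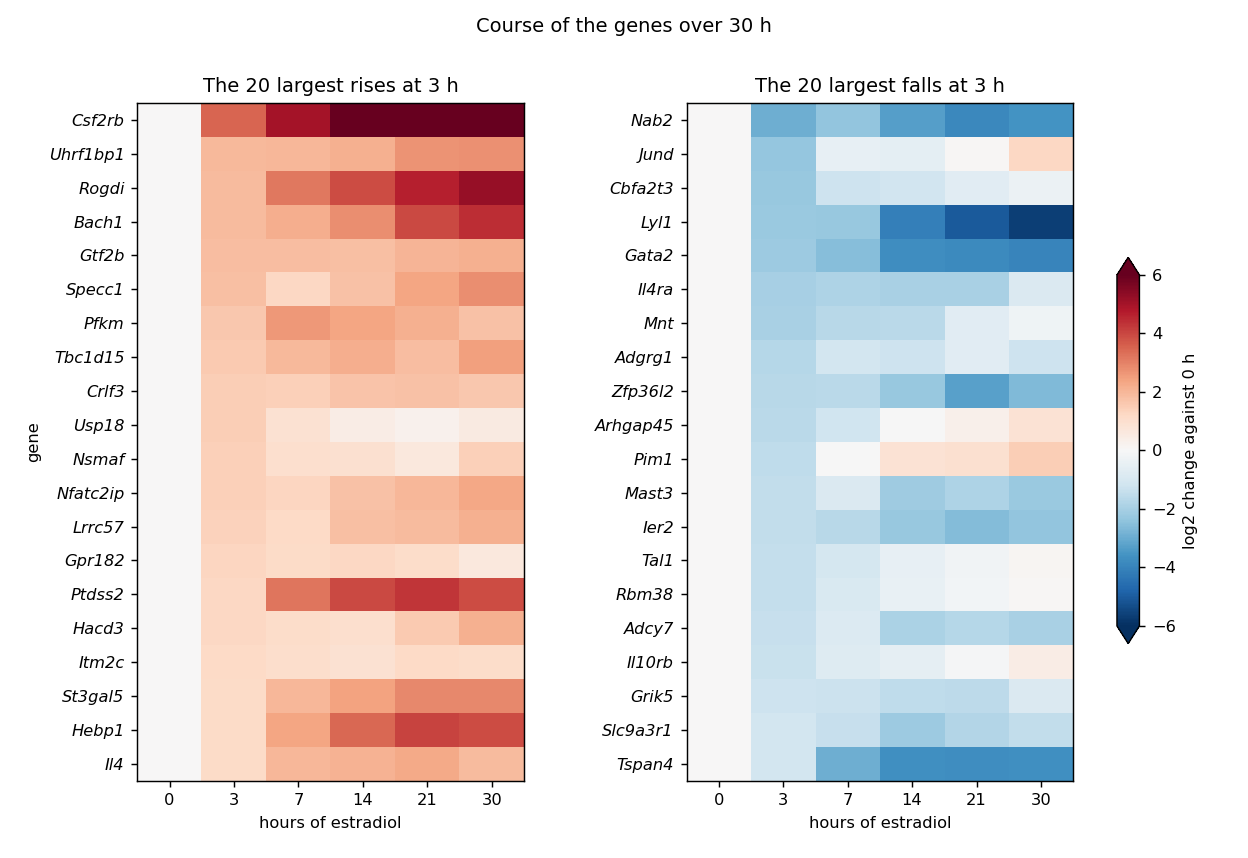
Colour gives the log2 change of each time against 0 h, from 0 to 30 h of estradiol along the horizontal axis, for the 20 genes with the largest rises at 3 h (left) and the 20 with the largest falls (right). Rows such as Csf2rb, Rogdi and Ptdss2 darken with time, Gata2 and Lyl1 go on falling, and Pim1 and Jund are blue at 3 h and red at 30 h.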

How the data were processed

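Signal intensities of 12488 probe sets on 18 arrays, 3 at each of 6 times, were used as the authors deposited them, per the labels as Affymetrix MG-U74Av2 data. The summary algorithm, its software and detection calls are not given in the sources used here. All 18 columns were quantile normalized and log2(intensity + 16) was fitted with limma 3.58.1 in R 4.3.3, with 1 mean per time, 12 residual degrees of freedom and an intensity trend. P-values for 3 h against 0 h were adjusted by Benjamini-Hochberg over 12422 probe sets. With 3 arrays against 3, an exact permutation test of 1 probe set cannot go below p = 0.1. Precision is limited by the number of arrays. None of the 153 pairs of arrays held identical values. The fit was tested on simulated data.

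Gene symbols came from the platform annotation, and 10833 probe sets had 1 symbol, 396 several and 1193 none. A gene was represented by the probe set with 1 symbol and the highest mean log2 intensity over the 18 arrays. Named genes were, among called genes whose arrays did not overlap, the 20 that rose most and the 20 that fell most, every called member of a gene list, Gata1, Gata2 and the 10 further called genes with the highest signal. The lists and this rule were chosen with earlier results of these data known. Arrays of the same letter at 3 h and 0 h did not deviate together (correlations 0.0398, 0.0119 and 0.00873), so the letters were not taken to pair samples. The later times, which also entered the fit, were not checked in this way. Alternatives changed the scaling, the added constant, the filter, the trend, array weights, the replicate block and the arrays fitted. Counts, promoter windows and plots were made with Python 3.11.15, pandas 2.3.3, numpy 2.4.6 and matplotlib 3.10.9.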

Additional observations from a re-analysis of the deposited data

How the results depend on the processing

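The direction of all 64 named genes was the same under the 15 alternatives, and 33 of the 63 called ones stayed called under every one. Against 132 calls (94 higher, 38 lower), array weights gave 202 (140 higher, 62 lower), which held all 132. Using only the 6 arrays of 3 h and 0 h gave 84 (54 higher, 30 lower), of which 71 were among the 132, with fewer residual degrees of freedom. It ended 16 named calls, those of Ampd3, Bach1, Cish, Gpr182, H2az2, Hif1a, Il4, Itm2c, Klf1, Mafk, Mast3, Ppp1r15b, Reep5, Sin3a, Wdr92 and Zfpm1. Leaving out 1 array gave 78 to 105 calls, 48 to 75 higher and 26 to 37 lower, and the count fell furthest without 3 h array A (78) and 0 h array B (87). A model with the letters as a replicate block gave 161 calls (112 higher, 49 lower), with 130 shared, and ended the call of none of the named genes. The other settings gave 103 to 150 calls. Scaling to a common median gave 108 calls and ended 10 named calls, those of Epor, H2az2, Hif1a, Klf1, Prelid3b, Rpia, Scd2, Sin3a, Slc9a3r1 and Tspan4, and omitting the intensity trend gave 103 and ended 9. The median log2 change over all probe sets stayed between −0.029 and 0.029 under every setting. Low intensities, where no detection call was used here, limit the dim transcripts, whose fold changes are understated.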
